A study of Mus musculus with 37 samples.

Results

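The cell cycle and DNA replication genes described here were 44 of the 53700 genes counted in sorted mouse uterine natural killer (uNK) cells. They were chosen by name from textbook roles, with no measured value in the rule but with earlier results of these data known. They were 17 genes of G1/S entry and DNA synthesis, 23 genes of G2 and mitosis, and 4 cyclins and inhibitors that act in G1. All 44 were found by symbol, and all 44 passed the filter on low values in every comparison. Ccna2, which acts in S phase as well as G2, and Foxm1, a transcription factor that drives G2 and mitotic genes, were counted with mitosis.

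The 37 libraries held RNA of cells from pregnant uteri (gestation day 9.5 to 10.5) and fell into 5 groups of live NKp46+ cells. In WT C57BL6 mice these were uneducated cells that lacked both Ly49C/I and NKG2A (9 libraries), cells with NKG2A alone (9 libraries, NKG2A+) and cells with Ly49C/I alone (6 libraries, Ly49C/I+). In mice with the genotype NKG2A KO C57BL6 they were uneducated cells (8 libraries) and Ly49C/I+ cells (5 libraries). The study lists its antibody for this gate as NKG2AC/E, so the gate may not have been for NKG2A alone. Cells with both receptors were not collected, and animal age was not given in the sources used here. The sort took NKG2A-negative cells in both genotypes outside the NKG2A+ group, and in the KO no cell could be set aside for carrying NKG2A, so the KO gates can hold cells that a WT sort would have placed elsewhere. The labels do not say that each library came from its own animal, so p-values measure the spread between these libraries, which may be partly technical. Nor do they say whether libraries of different groups with the same replicate number share an animal. The main tests treated all libraries as unpaired.

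Education is the process by which inhibitory receptors that bind self MHC class I tune the responsiveness of an NK cell, and NKG2A and Ly49C/I are such receptors in C57BL6 mice. uNK cells divide in the decidua during the first part of pregnancy. Cell division runs through G1, in which D-type cyclins with CDK4 or CDK6 open the way to S phase, through S phase, in which the MCM helicase and the nucleotide-supplying enzymes serve DNA synthesis, and through G2 and mitosis, driven by cyclin B with CDK1 and ended by the anaphase-promoting complex. E2F factors switch on genes of the G1/S step, whereas many G2 and mitotic genes are held down or raised together by complexes that act through CHR elements and CCAAT boxes near the start of transcription.

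Total reads on genes ranged from 13287163 to 18875033 with a median of 17273311, and levels are in CPM, a gene's reads scaled to a common library size with the TMM factors of edgeR. The summed level of 8 NK cell markers lay between 10868 and 14509 CPM in all libraries. Klrc1, the gene of NKG2A, averaged 605 ± 90.7 CPM (SD, n = 9) in NKG2A+ cells and between 2.15 and 4.27 CPM in the other 4 groups, so its level followed the sort and does not check the genotype. Klra9 (Ly49I) averaged 652 and 980 CPM in WT and KO Ly49C/I+ cells and 70.2 to 106 CPM in the other groups. Klra3 (Ly49C) did not follow the gate: it averaged 55.3 CPM in Ly49C/I+ against 137 in uneducated cells of WT, and 94.9 against 146 CPM in the KO. Of the other cell types, Cd4 averaged at most 0.376 CPM in any group, but the sum of the 8 T cell markers that include it averaged 102 to 149 CPM. The endothelial sum came almost wholly from Pecam1 (161 to 274 CPM), with Cdh5 and Kdr at no more than 0.0951 and 0.637 CPM. Sums of T cell markers lay between 56.1 and 214 CPM, macrophage and monocyte markers between 0.175 and 379 CPM, and erythroid markers between 190 and 2546 CPM. The number of genes with a count was lowest, at 13982 to 14197, in 4 libraries, which were WT uneducated 5, WT NKG2A+ 9, WT Ly49C/I+ 5 and KO Ly49C/I+ 5.

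The region before the transcription start shows what the mitotic genes share apart from their function. In the 300-base windows from RefSeq (GRCm38.p6, 250 bases before each start and 50 after), a window was held for 18 of the 23 mitotic genes and 14 of the 17 replication genes. A CHR match (the word TTTGAA, or its variant spelled TTTAAA, on either strand) stood in 88.9% of 18 mitotic windows, against 27.6% of all 32851 windows, and a CCAAT box (CCAAT on either strand) in 88.9% against 37.4%. Both together stood in 83.3% of the mitotic windows, against 10.7% of all and 54.0% of the 63 windows of a wider list of mitotic genes, where CHR stood in 66.7% and a CCAAT box in 73.0%. Of the replication windows 60% held a CCAAT box and 33.3% a CHR match. Of 15 replication windows 53.3% held an E2F match (the word TTGGCGC, its variant spelled TTCGCGC, or the variant spelled TTCCCGC, on either strand), against 8.07% of all windows and 16.7% of the mitotic ones. The 25 mitotic CHR matches lay a median of 19 bases before the start, and 15 of the 16 genes that had one had it no further than 100 bases before the start. The CCAAT boxes lay further out, at a median of 83 bases before the start, and 11 of 16 genes had more than 1. These are matches of letters and not measured binding sites. An E2F word and a CCAAT box on the other strand can share letters, as can E2F words on opposite strands.

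The stretches below run from 150 bases before to 30 bases from the start, 5′ to 3′ on the coding strand, with motif letters in capitals (a match on the other strand reads as the reverse complement, such as ATTGG for a CCAAT box). Cdc20, Ccnb2, Top2a and Kif23 are shown because their levels differed in the comparisons below and they carry the mitotic pattern. Cdc20 and Ccnb2 were lower in KO Ly49C/I+ cells, and Top2a and Kif23 higher in NKG2A+ cells. Nusap1 is shown as a mitotic gene whose window held none of these letters, though it passed in WT Ly49C/I+ cells. Mcm6 and Rrm1 are shown as replication genes with E2F words. Any link between motifs and level differences was not tested. Cdc20 lay at chr4:118437314-118437493 (minus strand), Ccnb2 at chr9:70421525-70421704 (minus), Top2a at chr11:99024160-99024339 (minus), Kif23 at chr9:61946770-61946949 (minus), Nusap1 at chr2:119618148-119618327 (plus), Mcm6 at chr1:128359676-128359855 (minus) and Rrm1 at chr7:102441545-102441724 (plus).
Cdc20: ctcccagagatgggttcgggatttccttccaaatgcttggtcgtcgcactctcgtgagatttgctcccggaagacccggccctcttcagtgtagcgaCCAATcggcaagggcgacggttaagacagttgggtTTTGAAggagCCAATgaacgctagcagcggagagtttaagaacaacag
Ccnb2: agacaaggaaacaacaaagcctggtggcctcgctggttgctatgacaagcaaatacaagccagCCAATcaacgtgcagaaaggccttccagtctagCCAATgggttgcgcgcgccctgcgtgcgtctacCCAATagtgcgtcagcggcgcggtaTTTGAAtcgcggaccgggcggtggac
Top2a: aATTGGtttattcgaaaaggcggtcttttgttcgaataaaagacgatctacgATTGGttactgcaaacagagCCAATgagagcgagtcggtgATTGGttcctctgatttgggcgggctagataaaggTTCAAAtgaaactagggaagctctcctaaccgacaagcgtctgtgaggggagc
Kif23: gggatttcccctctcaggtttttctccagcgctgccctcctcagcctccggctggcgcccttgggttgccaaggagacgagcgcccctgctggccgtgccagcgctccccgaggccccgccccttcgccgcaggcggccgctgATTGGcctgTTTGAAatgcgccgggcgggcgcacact
Nusap1: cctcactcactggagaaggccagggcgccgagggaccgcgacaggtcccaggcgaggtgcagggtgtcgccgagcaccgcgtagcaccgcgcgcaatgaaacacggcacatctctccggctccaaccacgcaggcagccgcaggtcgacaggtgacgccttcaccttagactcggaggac
Mcm6: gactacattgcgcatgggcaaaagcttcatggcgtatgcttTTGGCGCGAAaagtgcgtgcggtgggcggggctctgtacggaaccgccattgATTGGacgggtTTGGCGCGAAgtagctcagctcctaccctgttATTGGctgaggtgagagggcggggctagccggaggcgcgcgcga
Rrm1: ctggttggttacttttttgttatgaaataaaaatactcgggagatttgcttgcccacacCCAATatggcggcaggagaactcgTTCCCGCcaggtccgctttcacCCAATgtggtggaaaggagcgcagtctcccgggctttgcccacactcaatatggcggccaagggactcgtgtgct

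In these stretches the CHR word of Cdc20 stood between a pair of CCAAT boxes, Ccnb2 had 3 CCAAT boxes before its CHR word, and Mcm6 held the same run of overlapping E2F words at 2 places. The plot of window shares sets the 3 motifs side by side.

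**Figure D1:**
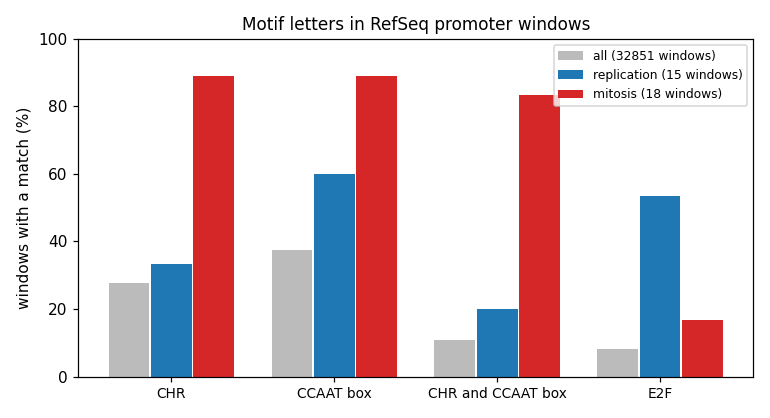
Share of promoter windows (percent, y axis from 0) that held a CHR match, a CCAAT box, both, or an E2F match, for the mitotic genes, the replication genes and all windows. CHR and CCAAT box together stood in 83.3% of 18 mitotic windows and 10.7% of all windows, and E2F words in 53.3% of 15 replication windows and 8.07% of all.

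The cycle genes were well measured in all 5 groups. None of the 1628 values (44 genes in 37 libraries) was a count of 0, the median count was 1401 reads, and 3 values were under 50 reads, all of Ccne2, which codes for cyclin E2 (5 reads in KO Ly49C/I+ library 5, 7 in WT Ly49C/I+ library 4 and 45 in WT uneducated library 5). Per kilobase of exon, replication genes had a median level of 23.2 CPM per kb over all libraries and mitotic genes 17.1 CPM per kb, against 9.83 CPM per kb for the 9277 expressed genes. Exon length was that of all annotated exons of a gene merged, which can exceed the length of its main transcript. The highest levels per kb were those of the helicase subunits Mcm6 (112) and Mcm5 (84.0), the sliding clamp Pcna (80.4), the ribonucleotide reductase subunit Rrm2 (72.9) and the mitotic cyclin Ccnb2 (71.5). The lowest were those of the kinetochore gene Cenpf (1.68), the CDK inhibitor Cdkn1b (1.83), Foxm1 (3.21) and Ccne2 (3.56). Mki67, the common proliferation marker, stood at 9.33 CPM per kb, close to the median of all expressed genes.

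Summed over the 17 replication genes, the level was 2928 ± 344 CPM (SD, n = 9) in WT uneducated cells, 3112 ± 410 (n = 9) in NKG2A+ cells, 2652 ± 399 (n = 6) in WT Ly49C/I+ cells, 2875 ± 174 (n = 8) in KO uneducated cells and 2400 ± 275 (n = 5) in KO Ly49C/I+ cells. Summed over the 23 mitotic genes it was 1812 ± 307, 1963 ± 368, 1779 ± 331, 1701 ± 137 and 1424 ± 292 CPM in the same order. KO Ly49C/I+ cells had the lowest mean of both sums, and their ranges of 2013 to 2758 and 1074 to 1832 CPM overlapped those of KO uneducated cells, 2535 to 3099 and 1492 to 1928 CPM. The sum of the 4 G1 genes was 673 ± 105, 936 ± 140.1, 787 ± 144, 784 ± 162 and 1103 ± 166 CPM in that order. Its highest mean was in KO Ly49C/I+ cells, whose libraries (872 to 1308 CPM) all lay above those of WT uneducated cells (533 to 842 CPM) and overlapped those of the other groups. KO Ly49C/I+ and WT uneducated cells differ in both genotype and sort gate and were not tested against each other. The sum was mostly that of the cyclins: over all libraries Ccnd2 and Ccnd3 averaged 369 and 329 CPM, and the inhibitors Cdkn1a and Cdkn1b 131 and 8.35 CPM. In bulk RNA, fewer cells in cycle and less of these transcripts per cell cannot be told apart.

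**Figure D2:**
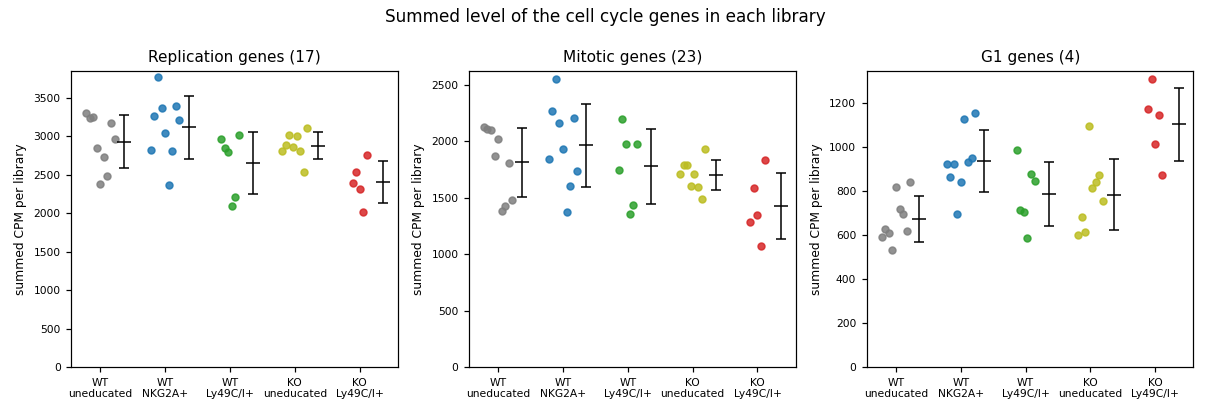
Summed level (CPM, y axis from 0) of the replication, mitotic and G1 genes in each of 37 libraries (points), with bars for the mean ± SD of each of the 5 groups. The replication and mitotic sums have their lowest means in KO Ly49C/I+ cells (2400 and 1424 CPM) and the G1 sum its highest there (1103 CPM). For the G1 sum, KO Ly49C/I+ and WT uneducated cells do not overlap (872 to 1308 against 533 to 842 CPM), a pair that differs in genotype and sort gate and was not tested.

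In some groups 1 library was at the end of the range for many members. Within KO Ly49C/I+ cells, library 7 was the lowest of the 5 for 23 of the 40 replication and mitotic genes and library 8 the highest for 24. Among NKG2A+ cells library 6 was the lowest of 9 for 25 and library 3 the highest for 17, and among WT Ly49C/I+ cells library 5 was the lowest of 6 for 23. The uneducated groups were more mixed, with no library the lowest for more than 13 (WT) and 14 (KO) of the 40 genes. The median coefficient of variation over members within a group ranged from 18.7% in KO uneducated to 25.4% in WT Ly49C/I+ cells, with Birc5 the steadiest in KO uneducated cells (5.82%) and Cdkn1b the most variable in WT uneducated cells (69.0%).

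The first comparison asked which genes differ between educated and uneducated cells, here NKG2A+ against uneducated cells in WT mice. D-type cyclins were higher in NKG2A+ cells: Ccnd2 and Ccnd3, which activate CDK4 and CDK6 in G1, each rose 1.53-fold. Of the mitotic genes, Top2a, the topoisomerase that untangles replicated DNA, and Kif23, a kinesin of the central spindle, rose. Of the replication genes, Cdt1, which loads the MCM helicase onto origins, rose. In all 5 of 44 members (11.4%) passed the test, all higher, against 15.0% of the 9339 genes tested, so the members' share lay below that background. The median difference was 0.12 on the log2 scale over the members and 0.01 over all genes.

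Ccnd2 (ENSMUSG00000000184, chr6:127125162-127152193, minus strand, GRCm38) ranged from 325 to 578 CPM with a median of 420 in the 9 NKG2A+ libraries and from 187 to 410 with a median of 267 in the 9 uneducated ones. All 9 NKG2A+ libraries lay above the uneducated median, and the ranges overlapped. The log2 difference was 0.61 (SE 0.137, edgeR quasi-likelihood adjusted p = 0.00411). Ccnd3 (ENSMUSG00000034165, chr17:47505051-47599691, plus strand) ranged from 260 to 495 CPM against 177 to 336, again with all 9 above the uneducated median, and its log2 difference was 0.61 (SE 0.129, edgeR adjusted p = 0.00262). The inhibitors of cyclin-dependent kinases among the members did not pass: Cdkn1a (p21) averaged 134 and 142 CPM (log2 difference -0.08, edgeR adjusted p = 0.735) and Cdkn1b (p27) 8.11 and 9.36 CPM (-0.20, edgeR adjusted p = 0.749). From the wider list of G1 regulators described below, the CDK inhibitors Cdkn2c and Cdkn2d did pass, both higher in NKG2A+ cells. Cdkn2c averaged 76.9 against 54.8 CPM (0.49, edgeR adjusted p = 0.0144) and Cdkn2d 84.3 against 63.5 CPM (0.41, edgeR adjusted p = 0.0493). Cdkn1c, Cdkn2a and Cdkn2b of that list were not called.

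Kif23 ranged from 30.2 to 74.8 CPM with a median of 53.7 in NKG2A+ cells and from 20.7 to 45.4 with a median of 33.9 in uneducated cells. Its log2 difference of 0.63 (SE 0.170, edgeR adjusted p = 0.0143) was the largest of the mitotic genes that passed. Top2a ranged from 157 to 333 CPM against 130 to 231 (log2 difference 0.45, SE 0.127, edgeR adjusted p = 0.0196), and Cdt1 from 52.3 to 98.0 CPM against 47.9 to 77.6 (0.41, SE 0.125, edgeR adjusted p = 0.0306). The other classical proliferation genes stayed short of the threshold. Mki67 averaged 115 ± 36.1 and 98.7 ± 37.9 CPM (SD, n = 9 each) with a log2 difference of 0.23 (edgeR adjusted p = 0.533), and Pcna averaged 216 ± 26.1 and 189 ± 19.7 CPM with a difference of 0.20 (edgeR adjusted p = 0.109). Cdc20, which activates the anaphase-promoting complex, was the nearest on the low side, at 69.4 ± 9.88 against 90.2 ± 24.0 CPM.

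Across 29 alternative settings Ccnd2, Ccnd3 and Kif23 passed in 29, Top2a in 28 and Cdt1 in 19. Erythroid marker sums moved with the groups (mean 1452 CPM in NKG2A+ and 746 in uneducated cells), as did Pecam1 (161 and 274 CPM) and Epcam (26.8 and 65.5 CPM), and their part in these differences was not tested.

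**Figure D3:**
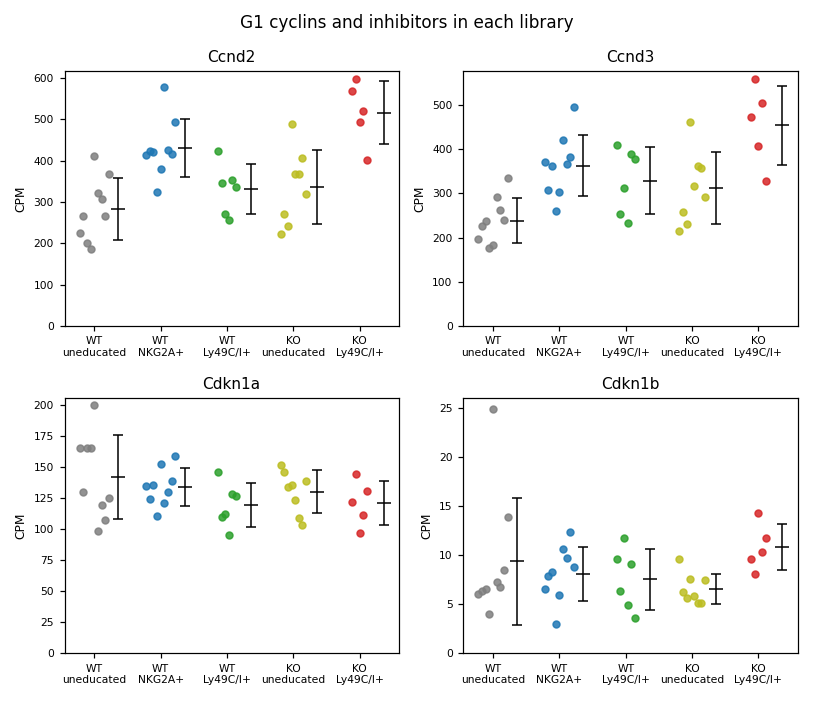
Level (CPM, y axis from 0) of Ccnd2, Ccnd3, Cdkn1a and Cdkn1b in each library (points), with bars for the mean ± SD of each of the 5 groups. Mean Ccnd2 and Ccnd3 are lowest in WT uneducated cells (283 and 239 CPM) and highest in KO Ly49C/I+ cells (517 and 455 CPM), while Cdkn1a has means of 119 to 142 CPM.

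The same question for Ly49C/I+ against uneducated cells in WT mice gave 1 member past the threshold. Nusap1, a microtubule-binding protein of the spindle, rose. That was 2.27% of the 44 members, against 9.20% of 9292 genes. Nusap1 (ENSMUSG00000027306, chr2:119618298-119651244, plus strand) ranged from 61.8 to 106 CPM with a median of 89.4 in the 6 Ly49C/I+ libraries and from 46.0 to 82.1 with a median of 63.4 in the 9 uneducated ones. Of the 6, 5 lay above the uneducated median, and the log2 difference was 0.47 (SE 0.140, edgeR adjusted p = 0.0422). The call held in 10 of 25 alternatives.

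No replication gene passed in this comparison, and 13 of 17 had differences below 0 (median -0.19). Of the mitotic genes 14 of 23 lay below 0 (median -0.13), and the median over all genes tested was 0.01. Ccnb2 averaged 89.2 ± 27.8 (n = 6) against 126 ± 16.6 CPM (n = 9), a log2 difference of -0.49 (edgeR adjusted p = 0.0623). Ccnd3 averaged 329 ± 75.1 against 239 ± 52.1 CPM (0.46, edgeR adjusted p = 0.0638), and Ccnd2 331 ± 60.9 against 283 ± 75.2 CPM (0.22, edgeR adjusted p = 0.425). Without any 1 of WT uneducated libraries 2, 3, 7 and 8 or WT Ly49C/I+ libraries 1 and 4 the count was 0, and without WT uneducated library 5 or 6 it was 2. Over all genes the former fits called 539 to 849 genes and the latter 1227 and 1068, beside 855 with all libraries. Both WT comparisons use the same 9 uneducated libraries, so their values are not independent.

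Set directly against each other, NKG2A+ and Ly49C/I+ cells of WT mice differed in none of the 44 members by the edgeR quasi-likelihood test, while 2.73% of 9308 genes passed. At an unadjusted p under 0.05 there were 7 members, against 18.4% of all genes, and the edgeR likelihood ratio test and DESeq2 each called 2 members, out of 442 and 558 genes. The differences lay above 0 for 36 members (median 0.19, against -0.00062 over all genes). Mcm6 came closest, at 568 ± 65.8 CPM (n = 9) in NKG2A+ and 451 ± 56.5 (n = 6) in Ly49C/I+ cells, a log2 difference of 0.33 (edgeR adjusted p = 0.0555). Ccnd2 followed at 430 and 331 CPM (0.38, edgeR adjusted p = 0.0862). Without NKG2A+ library 6 the count was 2 (Mcm6 and Cenpe), without Ly49C/I+ library 1 it was 2 (Mcm6 and Ccnd2), and without Ly49C/I+ library 8 it was 1 (Mcm6). In that order these fits called 283, 306 and 223 of all genes, beside 254 with all libraries.

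Most calls among the members came from the KO. In Ly49C/I+ against uneducated cells of KO mice, 12 replication and mitotic genes fell and both D-type cyclins rose. The 5 replication genes were Ccne1, the cyclin of the G1/S step, Mcm3 of the helicase, both ribonucleotide reductase subunits Rrm1 and Rrm2, and Tyms, which makes thymidylate. The 7 mitotic genes were the cyclins Ccna2 and Ccnb2, Cdc20 and Ube2c of the anaphase-promoting pathway, the kinases Plk1 and Aurka, and Birc5 (survivin) of the chromosomal passenger complex. In all 14 of 44 members (31.8%) passed, against 16.3% of 9299 genes. By direction, 12 members fell against 8.99% of all genes and 2 rose against 7.34%. The members were chosen with earlier results of these data known, so these shares cannot show an excess over all genes.

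Differences lay below 0 for 16 of 17 replication genes (median -0.26) and 19 of 23 mitotic genes (median -0.39), and above 0 for 3 of 4 G1 genes (median 0.57). The median over all genes tested was 0.02. The replication gene above 0 was Cdt1, at 78.9 ± 20.8 (n = 5) against 68.2 ± 12.4 CPM (n = 8), a difference of 0.19 (edgeR adjusted p = 0.462). The mitotic genes above 0 were Mki67 (0.30), Kif11 (0.17), Foxm1 (0.15) and Top2a (0.06).

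Cdc20 (ENSMUSG00000006398, chr4:118432901-118437352, minus strand) had the smallest adjusted p of the members. It stood at 54.4, 67.9, 54.6, 47.7 and 54.3 CPM in KO Ly49C/I+ libraries 4 to 8 and at 67.2 to 114 CPM with a median of 82.4 in the 8 KO uneducated ones. Of the Ly49C/I+ libraries, number 5 alone reached into the uneducated range, and the log2 difference was -0.66 (SE 0.132, edgeR adjusted p = 0.00353). Ccnb2 stood at 87.8, 99.4, 92.2, 85.5 and 70.7 CPM, against 100.3 to 133 CPM with a median of 123. These groups did not overlap, and the share of all genes tested whose groups did not overlap is not given here. The log2 difference was -0.48 (SE 0.106, edgeR adjusted p = 0.00616).

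Birc5 stood at 70.9, 86.9, 97.9, 68.7 and 123 CPM in KO Ly49C/I+ cells and at 117 to 138 CPM with a median of 129 in KO uneducated cells. Library 8 alone lay within the uneducated range, and the log2 difference was -0.55 (SE 0.124, edgeR adjusted p = 0.00694). Plk1, the kinase that starts centrosome maturation and mitotic entry, stood at 38.4, 15.7, 37.3, 30.0 and 53.1 CPM against 37.7 to 67.0 CPM (log2 difference -0.65, SE 0.217, edgeR adjusted p = 0.0488). Aurka, which acts at the spindle poles, stood at 17.1, 29.2, 25.8, 16.9 and 27.8 CPM against 23.3 to 44.8 CPM (-0.58, SE 0.193, edgeR adjusted p = 0.0492). Both of these kinases overlapped more with the uneducated range than Cdc20 did, by 2 libraries of 5 for Plk1 and 3 of 5 for Aurka.

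Of the replication genes, Ccne1 (ENSMUSG00000002068, chr7:38097984-38107534, minus strand) differed most. It stood at 22.7, 12.4, 23.2, 10.7 and 17.1 CPM in KO Ly49C/I+ cells and at 21.6 to 43.7 CPM with a median of 29.1 in KO uneducated cells, a log2 difference of -0.84 (SE 0.238, edgeR adjusted p = 0.0246). Its paralog Ccne2 averaged 10.6 ± 6.45 and 13.8 ± 3.04 CPM and did not pass (log2 difference -0.40, edgeR adjusted p = 0.628). Mcm3 stood at 221, 154, 197, 138 and 190 CPM against 217 to 307 CPM with a median of 272 (-0.56, SE 0.118, edgeR adjusted p = 0.00454). The other helicase subunits had smaller differences that did not pass, from -0.26 for Mcm6 (edgeR adjusted p = 0.0554) and -0.24 for Mcm5 (edgeR adjusted p = 0.0609) to -0.13 for Mcm2 (edgeR adjusted p = 0.328).

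Rrm2, the regulatory subunit of ribonucleotide reductase, stood at 164, 124, 156, 98.4 and 191 CPM against 169 to 228 CPM with a median of 209 (log2 difference -0.52, SE 0.128, edgeR adjusted p = 0.0121). Library 8 alone lay within the uneducated range. Rrm1, Tyms, Ccna2 and Ube2c had log2 differences from -0.49 to -0.43 with edgeR adjusted p from 0.0144 to 0.0464. All 5 KO Ly49C/I+ libraries lay below the uneducated median for each of the 12 genes that fell. Pcna averaged 176 ± 24.3 and 184 ± 15.2 CPM (-0.09, edgeR adjusted p = 0.571), E2f1, the activating factor of G1/S genes, 50.2 ± 7.96 and 51.8 ± 9.70 CPM (-0.06, edgeR adjusted p = 0.823), and Cdc6, which loads the helicase with Cdt1, 41.7 ± 13.2 and 46.1 ± 16.8 CPM (-0.16, edgeR adjusted p = 0.697).

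**Figure D4:**
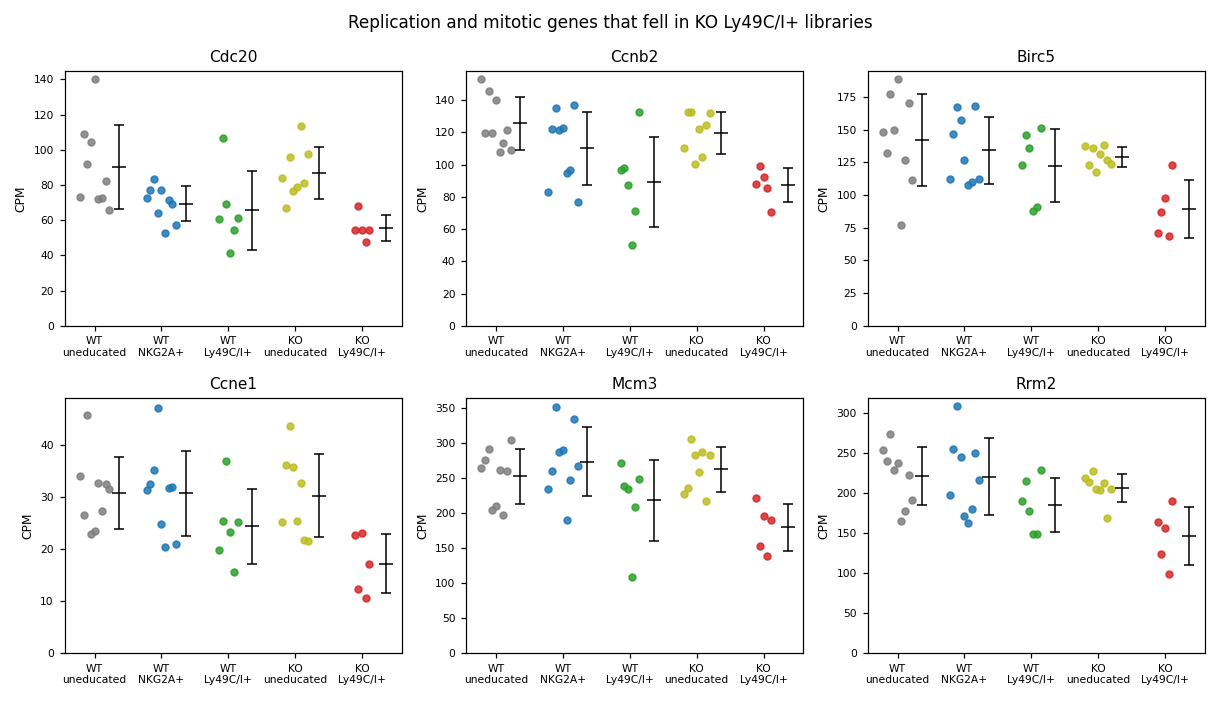
Level (CPM, y axis from 0) of Cdc20, Ccnb2, Birc5, Ccne1, Mcm3 and Rrm2 in each library (points), with bars for the mean ± SD of each of the 5 groups. In each panel the KO Ly49C/I+ mean is the lowest of the 5 groups, for example 55.8 CPM for Cdc20 and 147 CPM for Rrm2. For Ccnb2 the highest KO Ly49C/I+ library (99.4 CPM) lies under the lowest KO uneducated one (100.3 CPM). Ccnb2 was the 1 member of 44 without overlap in this comparison, and the share over all genes is not given here.

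Both D-type cyclins rose. Ccnd2 stood at 569.8, 597, 493, 520.1 and 403 CPM in KO Ly49C/I+ libraries 4 to 8 and at 223 to 489 CPM with a median of 343 in KO uneducated cells, a log2 difference of 0.61 (SE 0.158, edgeR adjusted p = 0.0164). Ccnd3 stood at 474, 559, 408, 506 and 328 CPM against 215 to 463 CPM with a median of 304 (0.52, SE 0.163, edgeR adjusted p = 0.0367). All 5 libraries lay above the uneducated median for both, and library 8, the highest for 24 of the 40 replication and mitotic genes, was the lowest for both cyclins. Cdkn1b averaged 10.8 ± 2.34 and 6.58 ± 1.54 CPM, a difference of 0.70 that did not pass (edgeR adjusted p = 0.0713), and Cdkn1a 121 ± 18.1 and 130 ± 17.1 CPM (-0.12, edgeR adjusted p = 0.501).

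Mki67 and Top2a, often used to mark cycling cells, did not pass and had differences above 0. Mki67 stood at 102, 86.2, 73.3, 45.2 and 135 CPM in KO Ly49C/I+ cells and at 45.5 to 117 CPM with a median of 65.4 in KO uneducated cells (log2 difference 0.30, edgeR adjusted p = 0.407, 95% interval -0.15 to 0.75). Top2a stood at 183, 196, 139.8, 133 and 255 CPM against 113 to 204 CPM (0.06, edgeR adjusted p = 0.843, interval -0.25 to 0.37). Cdk1, the kinase of mitotic entry, averaged 66.9 ± 18.0 and 88.5 ± 10.3 CPM (-0.42, edgeR adjusted p = 0.0646), and Ccnb1 22.9 ± 9.91 and 29.6 ± 5.67 CPM (-0.39, edgeR adjusted p = 0.25).

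Of 23 alternative settings, Mcm3, Rrm2, Cdc20 and Ccnd2 passed in all 23, Birc5 in 22, Ccna2 and Ccnb2 in 20, Rrm1 in 18, Ccne1 in 16, Tyms in 12, Ccnd3 in 9, Ube2c in 8, Aurka in 6 and Plk1 in 5. The fit without KO Ly49C/I+ library 5 stands in these numbers 2 times, since it is also the fit without libraries of few detected genes. The count of 14 was 7 without KO Ly49C/I+ library 7, 8 without KO Ly49C/I+ library 4 or KO uneducated library 3, 9 without KO uneducated library 1, 2, 5 or 8, and 9 with the replicate number as a block, and it was again 14, with 11 of the genes shared, without KO Ly49C/I+ library 5, which had few detected genes. Calls over all genes fell from 1519 to 1099 without KO Ly49C/I+ library 7 and 967 without KO Ly49C/I+ library 4. They fell to 1094 without KO uneducated library 3, 759 with the block and 1275 without KO Ly49C/I+ library 5. The NK marker sum was 12514 to 14509 CPM in KO Ly49C/I+ and 11856 to 13197 CPM in KO uneducated cells. The epithelial and trophoblast sum was 10.2 to 33.7 against 35.1 to 75.0 CPM, and the erythroid sum 406 to 1584 against 211 to 1113 CPM. The part of these cells in the differences was not tested.

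**Figure D5:**
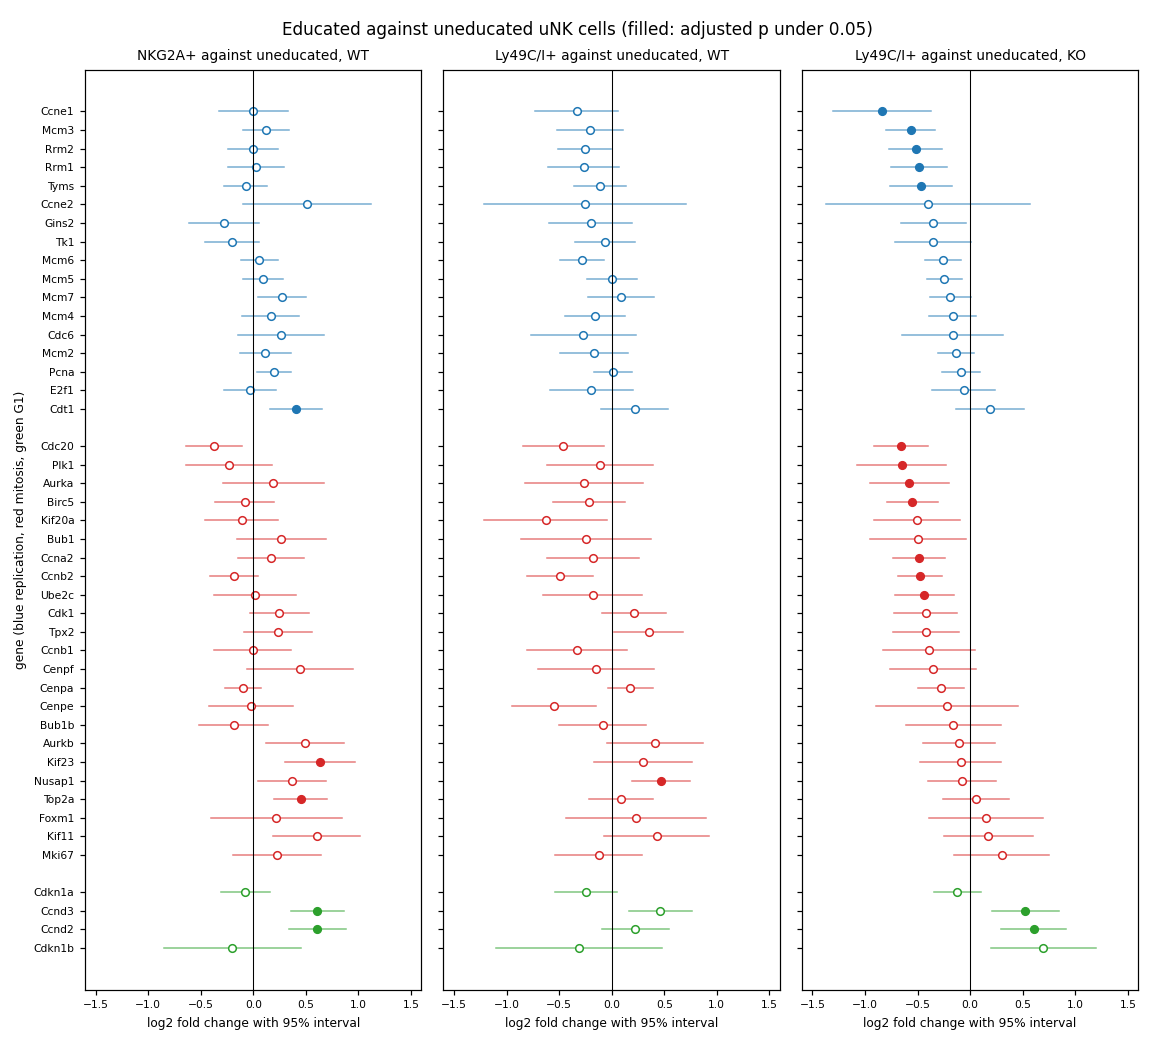
Log2 difference from uneducated cells for each of the 44 members in NKG2A+ WT, Ly49C/I+ WT and Ly49C/I+ KO cells, with filled points for an edgeR adjusted p under 0.05. Filled points number 5, 1 and 14, and in the KO the replication and mitotic genes lie mostly below 0 (16 of 17 and 19 of 23) with Ccnd2 and Ccnd3 above it.

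The KO and WT were also compared within a sort gate. In uneducated cells none of the 44 members passed by the edgeR quasi-likelihood test, and 0% of 9288 genes did; 3 members had an unadjusted p under 0.05, as did 6.66% of all genes, and over all genes the likelihood ratio test and DESeq2 each called 1. Those members were Mki67 (71.0 ± 22.3 CPM in KO, n = 8, and 98.7 ± 37.9 in WT, n = 9), Kif20a and Ccnd3 (312 ± 81.6 and 239 ± 52.1 CPM), chosen after their values were seen. The median difference was -0.05 over the members and -0.01 over all genes.

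In Ly49C/I+ cells the KO again gave 0 of 44 members and 0% of 9344 genes, with 9 members and 10.6% of all genes at an unadjusted p under 0.05. Over all genes the edgeR likelihood ratio test called 60 and DESeq2 84, of which 2 (Nusap1 and Ccnd2) and 3 (Cenpa, Nusap1 and Ccnd2) were members. All 23 mitotic genes had differences below 0 (median -0.25), 12 of 17 replication genes did (median -0.19), and all 4 G1 genes lay above 0 (median 0.49), with a median of -0.0015 over all genes. Ccnd2 averaged 517 ± 75.6 CPM in KO (n = 5) and 331 ± 60.9 in WT (n = 6), a log2 difference of 0.64 (95% interval 0.38 to 0.89, edgeR adjusted p = 0.137), and without WT Ly49C/I+ library 1 it passed. Nusap1, which had risen in WT, averaged 56.1 ± 8.34 in KO and 87.0 ± 14.9 CPM in WT (-0.64, interval -0.93 to -0.34, edgeR adjusted p = 0.181). Tpx2, a spindle assembly factor, and Cdk1 had differences of -0.65 and -0.58 (edgeR adjusted p = 0.257 and 0.32).

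Whether the Ly49C/I+ against uneducated difference itself changed with genotype was tested as an interaction over the 4 groups. None of the 44 members and 0% of 9322 genes passed by the edgeR quasi-likelihood test, the likelihood ratio test and DESeq2 each called 1 gene, and at an unadjusted p under 0.05 there were 4.37% of all genes and 5 members: Tpx2 (-0.76, KO minus WT, log2), Cdk1 (-0.62), Nusap1 (-0.53), Cenpa (-0.44) and Cdkn1b (1.02). The median was -0.19 over the members, 31 of which lay below 0, and 0.0021 over all genes. The 12 genes that fell in the KO were all below 0 in WT as well, at log2 differences of -0.49 to -0.11 (median -0.24), and none of them passed there. The larger number of calls in the KO is therefore not shown to be a difference between the genotypes.

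The rest of the pathway was read from wider lists of 50 replication genes, 66 mitotic genes and 38 regulators of G1. In NKG2A+ against uneducated WT cells, against 15.0% of all genes, 1 of 49 tested replication genes passed (Slbp, the histone mRNA binding protein, 0.24 on the log2 scale) and 4 of 63 mitotic genes, all higher. They included Cenpk (0.65) and Ndc80 (0.51) of the kinetochore and the condensin subunit Smc4 (0.44). In Ly49C/I+ against uneducated WT cells, against 9.20% of all genes, 2 of 49 replication genes passed, both lower: Pola1, the catalytic subunit of DNA polymerase alpha (24.8 against 45.6 CPM, -0.88), and Dut, which clears dUTP (-0.44). None of 62 mitotic genes did by the same edgeR test. Pola1 also passed between the educated groups, at 49.97 CPM in NKG2A+ and 24.8 in Ly49C/I+ cells (1.01), as did Smc4 (0.56), with 1 of 49 and 1 of 63 called against 2.73% of all genes.

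In KO Ly49C/I+ against KO uneducated cells 5 of 49 wider replication genes passed, all lower, with the largest differences for the folate enzyme Shmt1 (-1.03), Dut (-0.57) and the fork protection factor Tipin (-0.53). Of 62 wider mitotic genes 2 passed, in opposite directions: Cks1b, a CDK-binding subunit, was lower (87.4 against 143 CPM, -0.73) and Pttg1 (securin) higher (103.3 against 77.2 CPM, 0.40). The median differences of the wider lists were -0.18 and -0.10, nearer to 0 than those of the 17 and 23 genes above. Against 16.3% of all genes, 10.2% of the wider replication genes and 3.23% of the wider mitotic genes passed.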

How the data were processed

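RNA from sorted uNK cells was amplified with SMART-Seq v4 and sequenced as Nextera XT libraries. The authors deposited whole-number read counts per gene for each of 37 libraries, made with Trim Galore 0.5.0, FastQC 0.11.4 and STAR 2.7.1 on GRCm38, as listed in the submitters' processing notes together with edgeR 3.26.5 and R 3.6.1. Not given in the sources used here were the program that counted reads and its strand setting, and reads that a member shares with an overlapping gene or a close copy were not examined. The 5 summary lines per file (18.95% to 23.6% of the reads, median 20.2%) entered neither library sizes nor tests. Gene names, exon lengths and GC content came from GENCODE M21 for 52093 of 53700 identifiers.

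Counts were tested with edgeR 4.0.16 (R 4.3.3), quasi-likelihood, TMM, for genes that reached 5 CPM in a share of 0.5 or more of the fitted libraries, only the groups compared, Benjamini-Hochberg over all genes tested and a threshold of 0.05. Each SE was the absolute log2 difference divided by the square root of the F statistic of its test. Intervals are the log2 difference ± 1.96 SE (nominally 95%). They are approximate, and narrower than the finite degrees of freedom of that test would give. The study corrected for GC content and length with a method not used here, in place of which spline offsets were an alternative. Other alternatives were the likelihood ratio test, DESeq2 1.42.0, RLE size factors, no filter, a filter of 1 CPM, a replicate block, all groups in 1 fit, each library left out (for the test between genotypes, only KO Ly49C/I+ libraries), and, chosen after seeing the data, leaving out the 4 libraries with the fewest detected genes (13982 to 14197). No 2 libraries of a group agreed within sampling noise (lowest chi-square per degree of freedom 23.7).

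In simulated counts for the comparison of KO Ly49C/I+ with KO uneducated cells (9162 genes, 100 changed genes of each size), the test recovered 16% of log2 changes of 0.5 and 80% of changes of 1. For KO against WT Ly49C/I+ cells (9123 genes) it recovered 5% and 65%. In both, the changed genes were drawn from all genes and not from the members. For KO Ly49C/I+ against KO uneducated cells, the 1519 of 9299 genes that passed in the data outnumbered the changed genes simulated. The recovered shares therefore need not hold for the members.

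The members and lists were chosen with earlier results of these data known. Named genes were 19 fixed anchors, every member past the threshold (the 6 with the largest differences in each direction where over 12 passed) and, from each wider list, the 3 largest called differences in each direction. Others named were chosen after their values were seen. In the list of G1 regulators, 38 of 39 symbols matched. Promoter windows came from RefSeq (GRCm38.p6).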

Additional observations from a re-analysis of the deposited data

Results flagged for a closer look

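A library stood apart from the rest of its group in 8 of 155 tests of 1 member in 1 group of libraries (the gap to the nearest library over the whole range, against the 95% critical value of Dixon), and chance gives about 1 in 20. On the high side, Ccne1 was 45.8 CPM in WT uneducated library 3 (next 34.1), Cdk1 128 CPM in the same library (next 91.9), Ccnb1 39.9 CPM in KO Ly49C/I+ library 5 (next 21.0), Aurka 52.8 CPM in WT Ly49C/I+ library 2 (next 27.1) and Cdkn1b 24.9 CPM in WT uneducated library 5 (next 13.9). On the low side, Rrm2 was 169 CPM in KO uneducated library 7 (next 204), Tyms 76.4 CPM in WT uneducated library 6 (next 100.5) and Foxm1 10.7 CPM in WT Ly49C/I+ library 7 (next 20.4). Rrm2 passed in the KO comparison with and without KO uneducated library 7.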

How the results depend on the processing

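No member turned its direction past the threshold in any alternative, and the comparison of KO with WT uneducated cells and the test of the Ly49C/I+ effect between genotypes gave 0 members in every alternative run (for the latter, of single libraries only the 5 of KO Ly49C/I+ cells were left out). For NKG2A+ against uneducated WT cells (5 members, 1404 of 9339 genes), no filter gave 3 members and 1025 of 26246 genes. The replicate block gave 8 members and 1418 genes, and the block with GC and length offsets 9 and 1435. With 1 library left out there were 4 to 6 members and 1118 to 1687 genes. For Ly49C/I+ against uneducated WT cells (1 member, 855 of 9292 genes), the likelihood ratio test gave 3 members and 1148 genes, and DESeq2 3 and 1235. No filter gave 0 (451 of 25736 genes) and the 1 CPM filter 0 (805 of 11167 genes). The replicate block gave 2 (987 genes), all groups in 1 fit 4 (1528) and leaving out the libraries with few detected genes 3 (986 of 9304). With 1 library left out there were 0 to 2 members and 466 to 1227 genes. For NKG2A+ against Ly49C/I+ cells (0 members, 254 of 9308 genes), the likelihood ratio test gave 2 (442 genes), DESeq2 2 (558) and all groups in 1 fit 1 (264). With 1 library left out there were 0 to 2 members and 147 to 306 genes. For Ly49C/I+ against uneducated KO cells (14 members, 1519 of 9299 genes), no filter gave 7 (889 of 24592 genes), GC and length offsets 9 (1380) and the replicate block 9 (759). The block with the offsets gave 5 (662 genes), all groups in 1 fit 9 (1108) and DESeq2 18 (1879). With 1 library left out there were 7 to 19 members and 967 to 1763 genes. The highest member count was without KO Ly49C/I+ library 8 (1442 of 9401 genes). For KO against WT Ly49C/I+ cells (0 members, 0 of 9344 genes), the likelihood ratio test gave 2 (60 genes), DESeq2 3 (84) and all groups in 1 fit 1 (18). With 1 library left out there were 0 to 1 members and 0 to 15 genes. The cause of these shifts was not tested. Deviations of libraries with the same replicate number had a median correlation of 0.0904 over 9 pairs of NKG2A+ and uneducated WT libraries. The median was 0.103 over 6 pairs of Ly49C/I+ and uneducated WT libraries and 0.0499 over 5 KO pairs. In the same order the correlation was over 0.1 in 2 of 9, 4 of 6 and 1 of 5 pairs. The main tests did not use this pairing. As a hint from the data, 6 of 9, 6 of 6 and 2 of 5 of these pairs, and 5 of 6 pairs of NKG2A+ and Ly49C/I+ libraries, correlated best with their own number. The numbers are partly uncertain: the description of WT uneducated library 5 repeats that of library 4, and titles number 4 WT Ly49C/I+ libraries otherwise than their descriptions, which were used here. The block values are therefore alternatives only. The median member count was 1401 reads.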

Other observations

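The wider list of G1 regulators holds CDK inhibitors, growth arrest genes and kinase partners of the D-type cyclins. Of these, 10 of 34 tested passed in NKG2A+ against uneducated WT cells (7 higher, 3 lower), 6 of 33 in Ly49C/I+ against uneducated WT cells (3 higher, 3 lower) and 12 of 33 in KO Ly49C/I+ against KO uneducated cells (4 higher, 8 lower), beside 15.0%, 9.20% and 16.3% of all genes. The list was drawn up with earlier results of these data known, so its shares cannot show an excess over all genes. Higher in NKG2A+ cells were Gadd45a, a growth arrest and DNA damage gene (19.4 against 9.11 CPM, 1.10 on the log2 scale, edgeR adjusted p = 0.0051), and the antiproliferative genes Tob1 (64.8 against 37.1 CPM, 0.80, edgeR adjusted p = 0.0098) and Btg1 (1034 against 639 CPM, 0.70, edgeR adjusted p = 0.00089). Lower were Gadd45g (106 against 211 CPM, -0.98, edgeR adjusted p = 0.000562), Cdk6, a kinase partner of the D-type cyclins (56.3 against 89.8 CPM, -0.67, edgeR adjusted p = 0.0169), and Ccng1 (-0.32).

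In WT Ly49C/I+ cells Tob1 (0.82), Btg1 (0.55) and Gadd45b (0.48) were higher, and Gadd45g (-0.87), Cdk6 (-0.83) and Ccng1 (-0.56) lower, with the same uneducated libraries on the other side. In KO Ly49C/I+ cells Btg1 (0.52), Btg2 (0.50) and Tob1 (0.47) were higher, and Cdk6 (43.9 against 73.7 CPM, -0.77, edgeR adjusted p = 0.00777), Cdc25a, a phosphatase that activates CDK2 (-0.69), and Gadd45g (-0.55) lower. Cdk6 was thus lower, and Ccnd2 and Ccnd3 had differences above 0, in all 3 comparisons of educated with uneducated cells, with both cyclins past the threshold in 2 of the 3.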
